A study of Mus musculus with 27 samples.

Results

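The genes described here are 10 collagens that do not build the classic fibrils, or that decorate them: Col6a1, Col6a2, Col6a3, Col8a1, Col12a1, Col13a1, Col14a1, Col15a1, Col16a1, and Col18a1. They were taken by symbol from the 22855 genes counted in both tissues, and all 10 were found and passed the filter on low counts in both. RNA-Seq had been performed on cardiac fibroblasts of C57BL/6 mice, sorted by flow cytometry for PDGFRα, and on whole hearts. Of the fibroblast samples, 3 came from postnatal day 1, 3 from 4 weeks of age, and 2 each from 14 weeks, from 1 year, and from 1.5 years, whereas whole hearts had 3 samples per age, which makes 27. The labels give no genotype beyond the strain, no treatment, and no sex. According to the study's methods, nonmyocytes were prepared from ventricles after the atria and valves were removed, the samples of an age came from different hearts, and fibroblasts were isolated from the hearts studied. The labels give fewer fibroblast samples at the later ages than those methods describe, and they do not say which samples share an animal.

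Collagen VI is assembled from 3 different chains into beaded microfilaments that surround cells and link them to the interstitial matrix, and its loss causes muscle disease. Collagens XII, XIV, and XVI belong to the fibril-associated collagens with interrupted triple helices (FACITs), which sit on the surface of collagen I fibrils or near it and govern how fibrils pack. Collagens XV and XVIII are the multiplexins, basement membrane proteoglycans whose C-terminal fragments (endostatin in collagen XVIII) are released by proteases. Collagen VIII is a short-chain collagen that forms networks in vessel walls and remodeling tissue, and collagen XIII is a transmembrane collagen of adhesion sites, including the neuromuscular junction.

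Totals ranged from 54615898 to 76758831 counts per sample in fibroblasts and from 46091271 to 67984404 in whole hearts. The marker Pdgfra was at 784 CPM (counts scaled to the TMM-adjusted library size) or more in every fibroblast sample and at 62.0 CPM or less in every whole heart. None of 8 fibroblast markers was at 0 in any sample. The summed level of 7 cardiomyocyte markers was 14.8 to 735 CPM in fibroblasts, with its highest values at postnatal day 1 (678 to 735 CPM), and 35409 to 87834 CPM in whole hearts. In fibroblasts 9 endothelial markers summed to 448 to 682 CPM at postnatal day 1 and 614 to 2063 CPM at 4 weeks. The sum was 1336 to 1639 CPM at 14 weeks, 477 to 674 CPM at 1 year, and 318 to 1345 CPM at 1.5 years. In whole hearts of 14 weeks it was 749 to 777 CPM, below both fibroblast samples of that age. None of the 9 was at 0 in any sample. In the fibroblast samples 8 pericyte and smooth muscle markers summed to 137 to 878 CPM, 4 cartilage and valve markers to 131 to 246 CPM, 5 epicardial markers to at most 28.6 CPM, and 4 Schwann cell markers to at most 14.4 CPM. The pericyte and smooth muscle sum was 547 to 878 CPM at postnatal day 1 and 137 to 212 CPM at 4 weeks. Over this interval 5 of these 8 markers were called lower and 1 higher, and 4 of 7 cardiomyocyte markers were called lower. The part of these cell types in the changes of the collagens over this interval was not tested. Xist did not exceed 0.570 CPM in any sample of 14 weeks or of 1 year and was 6.48 CPM or more in every other sample, and the Y-linked gene Ddx3y was at most 0.397 CPM at 1.5 years and at least 1.64 CPM at all other ages. Comparisons of 14 weeks or 1 year with other ages, and of 1.5 years with any other age, therefore differ in sex-linked transcripts as well as in age, and the effects cannot be told apart. In fibroblasts of postnatal day 1, Ddx3y was at 31.6 to 36.3 CPM and Xist at 137 to 276 CPM, and at 1.5 years they were at 0.0468 to 0.0813 CPM and 424 to 429 CPM. At 4 weeks they were at 24.8 to 50.8 CPM and 379 to 590 CPM. Of these 2 genes 1 was called higher at 4 weeks than at postnatal day 1 in fibroblasts. In the difference between tissues in that change 1 was also called. That comparison thus also differs in sex-linked transcripts, and the part of sex in it was not tested.

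Levels of different genes are compared as CPM per kb of the longest transcript. In fibroblasts of postnatal day 1, Col6a1 was highest at 1060 ± 22.3 (SD, n = 3) CPM per kb, followed by Col6a2 at 905 ± 30.3 (SD, n = 3) and Col15a1 at 559 ± 29.5 (SD, n = 3), and these groups did not overlap. Col8a1 at 4.8 ± 0.382 (SD, n = 3) and Col13a1 at 4.39 ± 1.17 (SD, n = 3) CPM per kb were lowest and overlapped. At 4 weeks Col15a1 led at 1256 ± 171 (SD, n = 3) CPM per kb but overlapped Col6a1 at 1036 ± 133 (SD, n = 3), and Col8a1 had moved up to sixth at 110 ± 10.8 (SD, n = 3). Together the genes took a mean of 2.07% of fibroblast counts at 4 weeks, the highest of the ages, and 1.18% at 1.5 years, the lowest. In whole hearts the highest mean share was 0.102%, at postnatal day 1, and the lowest 0.0279%, at 1 year. The whole heart shares of postnatal day 1 (0.0902 to 0.126%) and of 4 weeks (0.0799 to 0.119%) overlapped, so the age of the highest share is not settled. In each tissue the samples of the lowest share also overlapped those of another age. These are shares of all counts without TMM scaling, and in whole hearts the order of postnatal day 1 and 4 weeks depends on that scaling. With it, Col6a1, Col6a2, Col6a3, Col8a1, Col15a1, and Col16a1 had their highest whole heart mean at 4 weeks. Col12a1, Col13a1, Col14a1, and Col18a1 had theirs at postnatal day 1. Mitochondrial genes took 10.8 to 34.5% of whole heart counts, and their part in these shares was not tested. In bulk tissue, fewer cells of a type and less RNA per cell cannot be told apart.

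**Figure D1:**
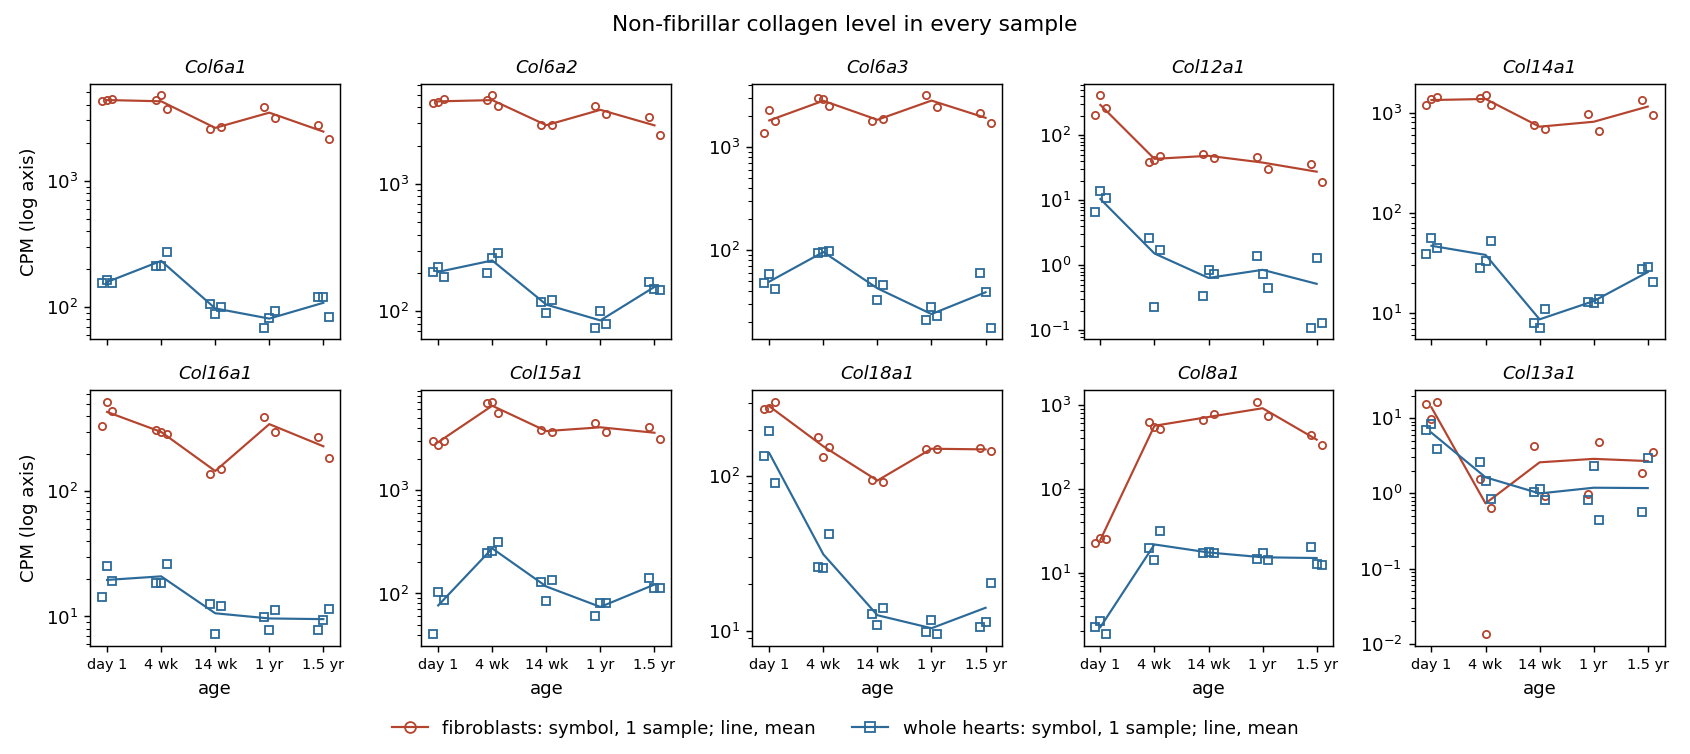
CPM on a log axis against age for each of the 10 genes, with 1 symbol per sample and lines through the means of fibroblasts (circles) and whole hearts (squares). Each tissue was scaled on its own, and the whole heart sample of 1.5 years with 0 counts of Col13a1 cannot be drawn on a log axis. Col8a1 climbed from 24.5 to 563 CPM in fibroblasts between postnatal day 1 and 4 weeks while Col12a1 went from 295 to 43.6 CPM.

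Ages were then compared in edgeR (quasi-likelihood F test, Benjamini-Hochberg adjustment over every gene tested). In fibroblasts, 9 of the 10 genes differed among the 5 ages, against 19.9% of all genes tested, and the exception was Col13a1 (adjusted p = 0.104). Whole hearts gave the same count, 9 of 10, against 34.3% of all genes, and again Col13a1 did not pass (adjusted p = 0.189). From postnatal day 1 to 4 weeks, 6 passed in fibroblasts (15.5% of all genes), 3 of them higher (9.28% of all genes) and 3 lower (6.2%). In whole hearts 5 passed over this interval (18.2%), 4 higher (12.1%) and 1 lower (6.1%).

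All of the genes that passed between 4 and 14 weeks were lower at 14 weeks. In fibroblasts 6 were lower and 0 higher, against 2.08% of all genes called lower, 1.79% called higher, and 3.87% called in either direction, and the median log2 fold change of the 10 was -0.68 when that of all genes was 0. In whole hearts 5 were lower and 0 higher, against 0.85% of all genes called lower and 0.756% called higher (1.61% in either direction), with a median of -1.20. The fibroblast count was 0 without replicate 4 or replicate 6 of 14 weeks, 1 without replicate 1 of 4 weeks, 2 without replicate 2 of 4 weeks, and 1 with offsets for transcript length and GC content. The whole heart count was 3 without any 1 of the 14-week samples or without replicate 3 of 4 weeks, when Col15a1 and Col18a1 no longer passed. The endothelial marker sum of fibroblasts was 614, 723, and 2063 CPM at 4 weeks and 1336 and 1639 CPM in both 14-week samples, and 0 of its 9 markers passed. Macrophage markers were lower at 14 weeks in fibroblasts, 4 of 6 (summed 265 to 432 CPM against 36.3 to 50.2 CPM). In whole hearts 3 of 8 fibroblast markers were lower (summed 1221 to 1658 CPM against 801 to 938 CPM). The part of these cell types in the changes of the collagens was not tested.

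After 14 weeks few of the 10 passed. In fibroblasts, with 2 samples per age, 5 had an unadjusted p under 0.05 at 1 year against 14 weeks. At 1.5 years against 14 weeks the unadjusted count was also 5. In fibroblasts 2 were higher at 1 year (1.31% of all genes called higher, 0.474% lower, 1.78% in either direction), and at 1.5 years 1 was higher and 1 lower (1.91% and 0.816% of all genes, 2.72% in either direction). When any 1 of the 4 samples compared was left out, the count at 1.5 years was 0, and that at 1 year was 0 without replicate 4 or 6 of 14 weeks or replicate 4 of 1 year and 1 without replicate 5 of 1 year. In whole hearts edgeR called 0 of 10 at 1 year (0.972% of all genes, 0.389% higher and 0.583% lower), where 4 had an unadjusted p under 0.05 and DESeq2 also called 0. At 1.5 years 1 was higher (4.91% of all genes called higher, 7.86% lower, 12.8% in either direction). The endothelial marker sum of fibroblasts was 1336 and 1639 CPM at 14 weeks and 477 and 674 CPM at 1 year. Of its 9 markers 0 passed between these ages. The part of endothelial cells in these later changes was not tested. Across the whole span, at 1.5 years against postnatal day 1, 6 passed in each tissue, 1 higher and 5 lower. The share of all genes called was 16.3% in fibroblasts (9.86% higher, 6.46% lower) and 31.8% in whole hearts (15.6% higher, 16.3% lower).

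**Figure D2:**
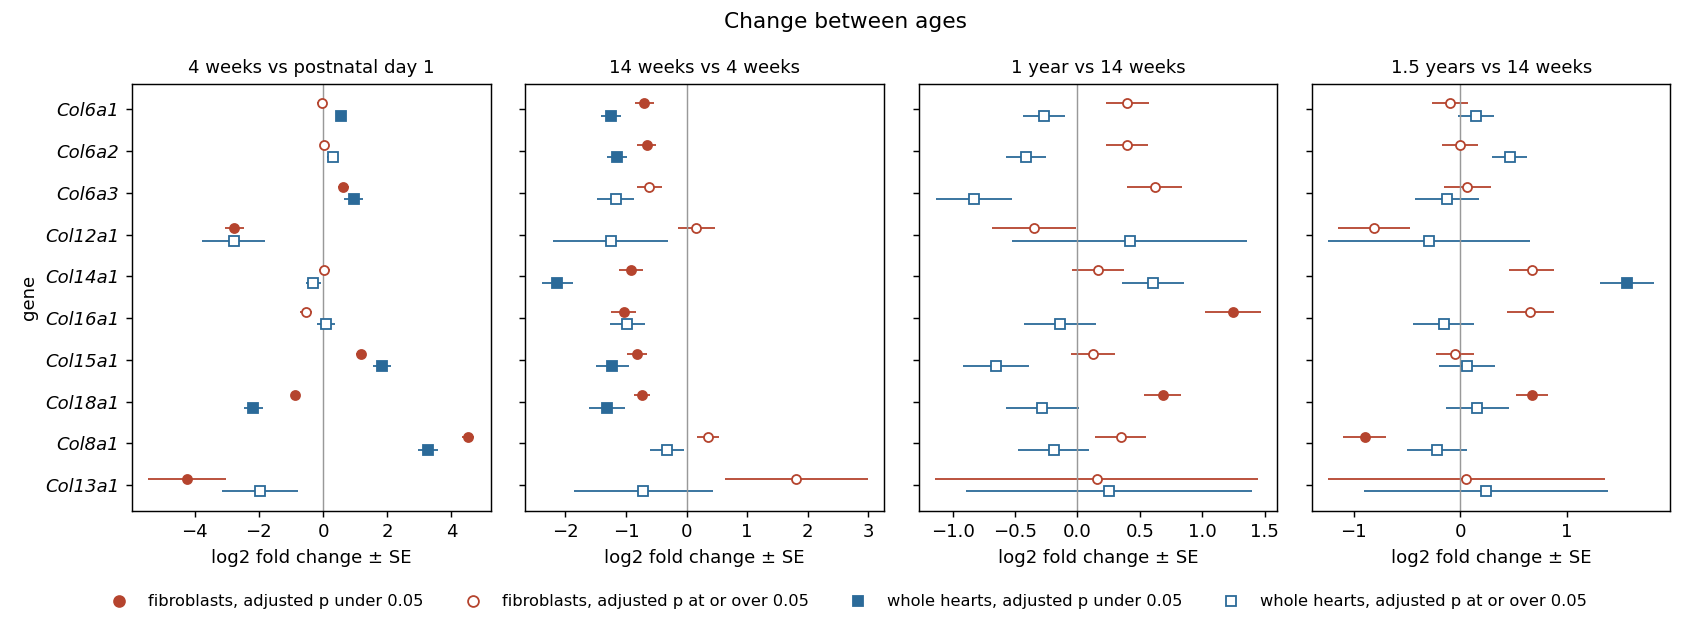
Log2 fold change ± SE of each gene for 4 pairs of ages in fibroblasts (circles) and whole hearts (squares), with filled symbols at an adjusted p under 0.05 and an axis of its own in each panel. From 4 to 14 weeks 6 circles and 5 squares are filled, and all of them lie to the left of 0.

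Of the collagen VI chains, Col6a1 and Col6a2 neighbor each other on chromosome 10 and had nearly the same profile in fibroblasts. Pearson's r between their log2 CPM was 0.99 over the 12 samples, which share libraries and ages, and Col6a2 ranked first of 8819 genes by likeness to Col6a1. Col6a1 lies at chr10:76708792-76726168 and Col6a2 at chr10:76595762-76623630 of GRCm38, both on the minus strand and 85.2 kb apart. Their upstream sequences are shown because the pair moved together. They are the 250 bases before a RefSeq start (GRCm38.p6), read 5′ to 3′ on the minus strand, at chr10:76726045-76726294 for Col6a1 and chr10:76623631-76623880 for Col6a2, which has a second start listed. GENCODE places the first exon of Col6a1 further upstream, so 124 of its bases lie inside that gene model. Capitals mark letters searched on both strands: TGANTCA (the AP-1 motif), GGGCGG (the GC box, which reads CCGCCC on the other strand), the TATA box TATAAA, the NF-Y motif CCAAT, the TEAD motif GGAATG, and the E-box CACGTG.
Col6a1: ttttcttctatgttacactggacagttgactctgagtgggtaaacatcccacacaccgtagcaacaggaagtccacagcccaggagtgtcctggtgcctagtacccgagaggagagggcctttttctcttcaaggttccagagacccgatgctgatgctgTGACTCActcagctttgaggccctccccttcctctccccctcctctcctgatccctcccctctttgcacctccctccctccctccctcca
Col6a2: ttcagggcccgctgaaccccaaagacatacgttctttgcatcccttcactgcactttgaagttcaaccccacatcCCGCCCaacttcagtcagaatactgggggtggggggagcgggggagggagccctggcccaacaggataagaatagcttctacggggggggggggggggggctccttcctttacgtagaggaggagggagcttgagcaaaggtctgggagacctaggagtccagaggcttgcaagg
The Col6a1 window held 1 match of TGANTCA, 84 to 90 bases before the start, and the Col6a2 window 1 match of GGGCGG, 170 to 175 bases before it. The window of the other Col6a2 start, chr10:76623405-76623654, is not shown and its matches differ. It held GGGCGG at 62 to 67, 10 to 15, and 6 to 11 bases before that start, and GGAATG at 110 to 115. Of 32851 RefSeq promoter windows of this length, 6.75% held TGANTCA and 32.7% GGGCGG. These are matches of letters and not evidence of binding.

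In fibroblasts Col6a1 was at 4261, 4335, and 4443 CPM at postnatal day 1 and at 4341, 4741, and 3659 CPM at 4 weeks. The groups overlapped, and the log2 fold change was -0.03 (SE 0.14, adjusted p = 0.938). At 14 weeks it was at 2576 and 2659 CPM, below every earlier sample, and it fell by 0.70 on the log2 scale from 4 weeks (SE 0.16, adjusted p = 0.0305). Col6a2 followed, from 4582, 4963, and 4094 CPM at 4 weeks to 2896 and 2881 CPM at 14 weeks (log2 fold change -0.65, SE 0.16, adjusted p = 0.0374). At 1 year both were higher than at 14 weeks without overlap, Col6a1 at 3797 and 3111 CPM and Col6a2 at 4115 and 3511 CPM, but neither passed (adjusted p = 0.355 and 0.338). At 1.5 years Col6a1 was again low at 2771 and 2122 CPM, below its postnatal day 1 level (log2 fold change -0.83, SE 0.16, adjusted p = 0.00299).

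In whole hearts Col6a1 rose from 154, 165, and 156 CPM at postnatal day 1 to 212, 213, and 272 CPM at 4 weeks (log2 fold change 0.55, SE 0.17, adjusted p = 0.027), and the groups did not overlap. The call was lost without any 1 of the postnatal day 1 samples or replicate 3 of 4 weeks (adjusted p 0.058 to 0.14). Col6a1 then fell to 106, 88.2, and 99.8 CPM at 14 weeks (log2 fold change -1.25, SE 0.17, adjusted p = 9.4e-04). Col6a2 fell likewise, from 201, 263, and 289 CPM to 118, 97.6, and 123 CPM (log2 fold change -1.15, SE 0.16, adjusted p = 0.00136). With scaling by library size only, the median over all genes of the log2 fold change at 4 weeks against postnatal day 1 was -0.60 and that of Col6a1 was 0.05 (adjusted p = 0.89), which is higher than that median but does not pass.

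Col6a3, the largest chain, took a different course from Col6a1 after birth in fibroblasts, whereas in whole hearts both rose. No test compared the chains. In fibroblasts Col6a3 rose from 1362, 2301, and 1792 CPM at postnatal day 1 to 3011, 2937, and 2513 CPM at 4 weeks, without overlap (log2 fold change 0.63, SE 0.18, adjusted p = 0.0317). In whole hearts it rose from 48.3, 58.8, and 42.2 CPM to 94.6, 95.8, and 98.6 CPM (log2 fold change 0.95, SE 0.30, adjusted p = 0.0369). Neither call held when single samples of these ages were left out, for 4 of the 6 samples in fibroblasts (adjusted p up to 0.098) and for all 6 in whole hearts (adjusted p up to 0.13). The ratio of Col6a3 to Col6a1 per length does not depend on scaling. In fibroblasts it was 0.130, 0.215, and 0.164 at postnatal day 1, and it lay between 0.251 and 0.341 in every later sample. In whole hearts it was 0.127, 0.145, and 0.110 at postnatal day 1 and 0.181, 0.182, and 0.147 at 4 weeks, without overlap. At 14 weeks it overlapped only the values of 4 weeks, at 1 year only those of postnatal day 1, and at 1.5 years both. The ratio of Col6a2 to Col6a1 stayed between 0.845 and 1.00 in fibroblasts of all ages and between 0.714 and 1.45 in whole hearts.

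**Figure D3:**
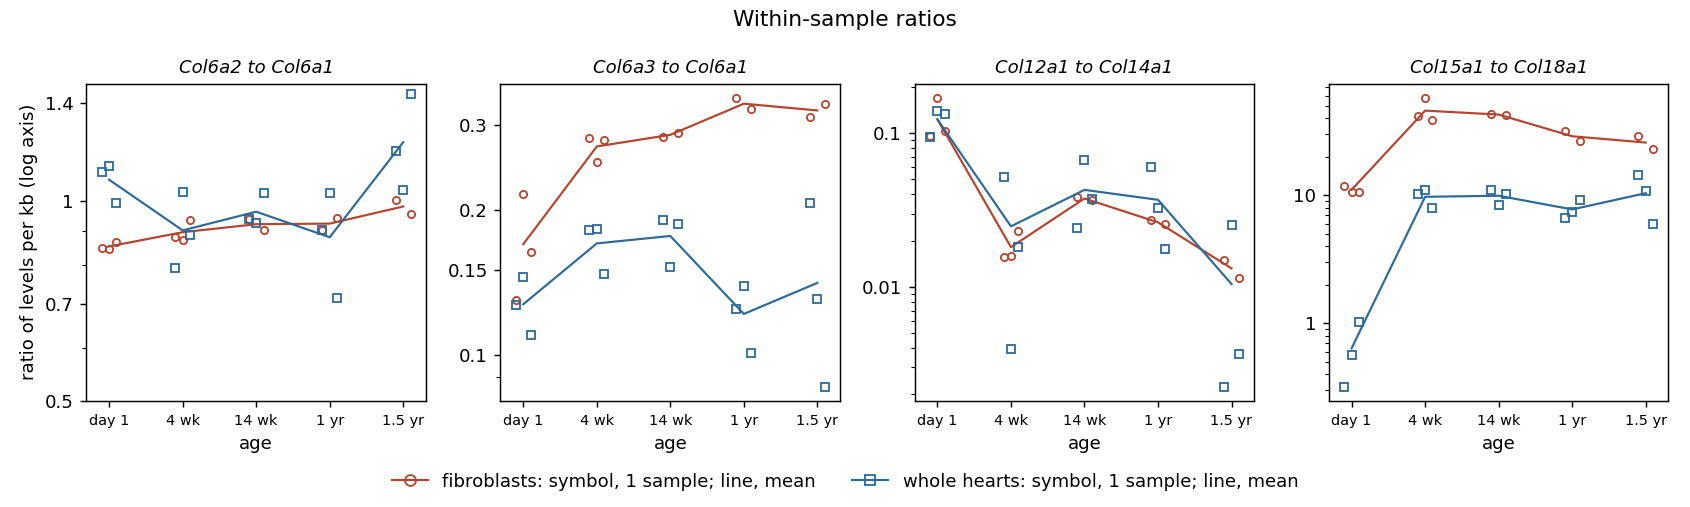
Ratios of levels per kb on a log axis against age, with 1 symbol per sample and lines through the means. Col15a1 to Col18a1 went from 0.322 to 1.03 in the whole hearts of postnatal day 1 to at least 5.93 in every later one, and Col6a3 to Col6a1 separated postnatal day 1 from all later ages in fibroblasts.

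Among the FACITs, Col12a1 and Col14a1 encode closely related proteins of the fibril surface and took different courses after birth. Col12a1, on chromosome 9, was at 205, 415, and 264 CPM in fibroblasts of postnatal day 1 and at 39.3, 42.3, and 49.1 CPM at 4 weeks. The groups were far apart, and the gene fell by 2.76 on the log2 scale (SE 0.29, adjusted p = 3.2e-05), to a level 6.77-fold lower. It stayed at 19.3 to 51.8 CPM afterward. Its level in whole hearts was low throughout, at 6.61, 14.1, and 10.8 CPM at postnatal day 1 and at 2.63, 0.233, and 1.71 CPM at 4 weeks, and the log2 fold change was nearly the same but did not pass (-2.79, SE 0.99, adjusted p = 0.061). DESeq2 called it (adjusted p = 0.011). By 1.5 years only 6, 83, and 8 reads were counted on Col12a1 in the 3 whole hearts, and the difference from postnatal day 1 passed (log2 fold change -4.33, SE 1.06, adjusted p = 0.005).

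Col14a1, on chromosome 15, was at 1194, 1375, and 1436 CPM in fibroblasts of postnatal day 1 and did not move by 4 weeks beyond the spread (1415, 1490, and 1200 CPM, log2 fold change 0.04, SE 0.17, adjusted p = 0.949). It fell to 757 and 691 CPM at 14 weeks (log2 fold change -0.92, SE 0.19, adjusted p = 0.0223). In whole hearts the fall was steeper, from 28.2, 33.1, and 52.9 CPM at 4 weeks to 7.89, 7.17, and 10.9 CPM at 14 weeks (log2 fold change -2.13, SE 0.26, adjusted p = 3.4e-04), a 4.39-fold difference. The difference of this change between the tissues did not pass (1.21 on the log2 scale, SE 0.33, adjusted p = 0.116), although DESeq2 called it (adjusted p = 0.017).

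In old whole hearts Col14a1 rose, to 27.5, 29.1, and 20.2 CPM at 1.5 years, 2.96-fold higher than at 14 weeks (log2 fold change 1.56, SE 0.25, adjusted p = 0.00139). It was the only 1 of the 10 that passed in that comparison. No group of whole hearts overlapped between 14 weeks, 1 year (12.9, 12.7, and 13.9 CPM), and 1.5 years. The level at 1.5 years was still below the 39.2 to 56.5 CPM of postnatal day 1 (log2 fold change -0.87, adjusted p = 0.0127). That difference was called in 10 of 14 alternatives (adjusted p up to 0.49). In fibroblasts Col14a1 was at 1348 and 950 CPM at 1.5 years, above both samples of 14 weeks, and did not pass (log2 fold change 0.67, SE 0.21, adjusted p = 0.132). Xist was among the 3 genes most like Col14a1 over the 15 whole hearts (r = 0.91), and was 0.125 to 0.414 CPM at 14 weeks and 34.8 to 129 CPM at 1.5 years. Fibroblast markers were also higher at 1.5 years than at 14 weeks in whole hearts, 3 of 8 (summed 801 to 938 CPM against 1240 to 1401 CPM, without overlap), as were 2 of 6 macrophage markers. The part of sex and of these cell types in the Col14a1 difference was not tested. The ratio of Col12a1 to Col14a1 per length went from 0.0965, 0.169, and 0.103 in fibroblasts of postnatal day 1 to 0.0156, 0.0159, and 0.0229 at 4 weeks, and was 0.0150 and 0.0114 at 1.5 years.

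Col16a1, a FACIT at chr4:130047840-130099283, was lower at 14 weeks and higher again at 1 year in fibroblasts, without such a return in whole hearts. In fibroblasts it went from 308, 300, and 288 CPM at 4 weeks to 139 and 152 CPM at 14 weeks (log2 fold change -1.04, SE 0.21, adjusted p = 0.0179), and back to 391 and 299 CPM at 1 year (log2 fold change 1.25, SE 0.23, adjusted p = 0.0162). Neither pair of ages overlapped. Both calls were lost without either sample of 14 weeks (adjusted p 0.12 to 0.21) and with offsets for length and GC content (adjusted p = 0.31 and 0.19), where the log2 fold changes were -0.59 and 0.92. At 1.5 years it was at 273 and 186 CPM, lower than the 332, 520, and 442 CPM of postnatal day 1 (log2 fold change -0.91, SE 0.21, adjusted p = 0.00906). That call was lost without replicate 5 of 1.5 years (adjusted p = 0.12). Whole hearts held 14.2, 25.3, and 19.2 CPM at postnatal day 1 and 7.72, 9.31, and 11.5 CPM at 1.5 years (log2 fold change -1.04, SE 0.29, adjusted p = 0.0113), a call lost without replicate 2 of postnatal day 1 (adjusted p = 0.097). Between these ages their means were 20.9 ± 4.47 CPM at 4 weeks, 10.6 ± 2.94 at 14 weeks, and 9.64 ± 1.75 at 1 year (SD, n = 3). The level in whole hearts thus was also lower at 14 weeks than at 4 weeks and did not return after 14 weeks. The difference between the tissues in the change from 4 to 14 weeks did not pass (-0.31 to 0.24 on the log2 scale under alternatives). That from 14 weeks to 1.5 years did not pass either, and none was tested for 1 year.

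The multiplexins moved in opposite directions after birth. Col15a1, at chr4:47208161-47313167, rose in fibroblasts from 2955, 2716, and 3000 CPM at postnatal day 1 to 6917, 7098, and 5479 CPM at 4 weeks, a 2.25-fold rise (log2 fold change 1.17, SE 0.15, adjusted p = 1.3e-04). The rise in whole hearts was 3.56-fold, from 40.5, 103, and 86.5 CPM to 246, 260, and 311 CPM (log2 fold change 1.83, SE 0.27, adjusted p = 1.3e-04). Every sample of 4 weeks was above every sample of any other age in both tissues. Endothelial markers also rose in whole hearts from postnatal day 1 to 4 weeks, 4 of 9 (summed 616 to 875 CPM against 1093 to 1281 CPM). Their part in the rise of Col15a1 was not tested. By 14 weeks Col15a1 had fallen to 3772 and 3624 CPM in fibroblasts (log2 fold change -0.81, SE 0.17, adjusted p = 0.0184) and to 130, 85.0, and 135 CPM in whole hearts (log2 fold change -1.22, SE 0.27, adjusted p = 0.0291). Among other alternatives, the fibroblast call was lost without replicate 1 or 2 of 4 weeks (adjusted p = 0.063 and 0.055). It was also lost with length and GC offsets (adjusted p = 0.16). The whole heart fall was called in 10 of 14 alternatives (adjusted p up to 0.17).

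Col18a1, at chr10:77052178-77166548, fell in fibroblasts from 273, 275, and 303 CPM at postnatal day 1 to 180, 134, and 154 CPM at 4 weeks (log2 fold change -0.86, SE 0.12, adjusted p = 3.7e-04). The fall in whole hearts went from 136, 197, and 90.8 CPM to 26.0, 25.7, and 42.1 CPM, 4.52-fold (log2 fold change -2.18, SE 0.30, adjusted p = 6.4e-05). It then reached 95.2 and 92.5 CPM at 14 weeks in fibroblasts (log2 fold change -0.73, SE 0.14, adjusted p = 0.0132) and 12.8, 10.9, and 14.2 CPM in whole hearts (log2 fold change -1.31, SE 0.30, adjusted p = 0.0346). Neither of these 14-week calls held under every alternative. The log2 fold changes ranged from -0.83 to -0.31 in fibroblasts and from -1.56 to -1.03 in whole hearts. The whole heart fall was called in 7 of 14 alternatives (adjusted p up to 0.19). In fibroblasts Col18a1 was higher again at 1 year, at 151 and 150 CPM (log2 fold change 0.68, SE 0.15, adjusted p = 0.04), and at 1.5 years, at 152 and 146 CPM (log2 fold change 0.67, SE 0.15, adjusted p = 0.0367). Both later calls were lost with library size scaling (adjusted p = 0.13 and 0.12) and with offsets for length and GC content. They were also lost when any 1 of the samples compared was left out, which leaves 1 sample at an age. Under all alternatives the log2 fold changes ranged from 0.39 to 0.70 at 1 year and from 0.27 to 0.70 at 1.5 years. Whole hearts showed no such return, with 9.89, 11.8, and 9.53 CPM at 1 year and 10.6, 11.3, and 20.4 CPM at 1.5 years, but the difference between the tissues in the change from 14 weeks to 1.5 years did not pass (0.49, SE 0.40, adjusted p = 0.622).

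The balance of the multiplexins shifted toward Col15a1. Per length, Col15a1 to Col18a1 was 11.7, 10.7, and 10.7 in fibroblasts of postnatal day 1 and 41.5, 57.3, and 38.4 at 4 weeks. At 1.5 years it was 28.8 and 22.8. In whole hearts it was 0.322, 0.563, and 1.03 at postnatal day 1, so that Col18a1 was about level with Col15a1 or above it, and 10.2, 11.0, and 7.99 at 4 weeks, with no overlap between the ages.

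Col8a1, the chain of network-forming collagen VIII, showed the largest change of the 10. In fibroblasts it stood at 22.3, 26.1, and 25.1 CPM at postnatal day 1 and rose to 624, 547, and 518 CPM at 4 weeks, 23.0-fold (log2 fold change 4.52, SE 0.19, adjusted p = 4.4e-08). The rise in whole hearts was 9.67-fold, from 2.22, 2.65, and 1.85 CPM to 19.6, 14.2, and 31.2 CPM (log2 fold change 3.27, SE 0.31, adjusted p = 1.3e-06). It stayed high afterward: every later sample of fibroblasts was at 328 CPM or more and every later whole heart at 12.2 CPM or more. In fibroblasts it was 652 and 781 CPM at 14 weeks and 1088 and 735 CPM at 1 year, then 442 and 328 CPM at 1.5 years, lower than at 14 weeks (log2 fold change -0.90, SE 0.20, adjusted p = 0.0381). That last call was lost when any 1 of the 4 samples was left out (adjusted p 0.053 to 0.28). In whole hearts the same comparison gave -0.22 (SE 0.28, adjusted p = 0.682). Macrophage markers also rose between postnatal day 1 and 4 weeks, in the fibroblast samples 3 of 6 (summed 99.1 to 195 CPM against 265 to 432 CPM), and their part in the rise of Col8a1 was not tested.

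The 250 bases before the RefSeq start of Col8a1, at chr16:57754738-57754987 of GRCm38.p6 on the minus strand, are shown as those of the gene that rose the most, with the same letters in capitals.
Col8a1: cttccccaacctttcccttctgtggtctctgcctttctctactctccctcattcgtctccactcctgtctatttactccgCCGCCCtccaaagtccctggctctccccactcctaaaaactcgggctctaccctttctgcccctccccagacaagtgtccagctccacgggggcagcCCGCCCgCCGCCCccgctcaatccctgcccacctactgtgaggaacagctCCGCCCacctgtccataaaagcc
The window held 4 matches of GGGCGG, all on the other strand (CCGCCC), at 165 to 170, 68 to 73, 61 to 66, and 18 to 23 bases before the start, and none of the other letters searched. Of the 10 windows that RefSeq lists for 8 of the genes, 5 held the GC box, 2 the NF-Y motif, 2 the TEAD motif, 1 the TATA box, 1 the AP-1 motif, and 0 the E-box. The shares of all 32851 windows were 32.7%, 33.8%, 12.6%, 12.4%, 6.75%, and 6.02%, respectively.

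Col13a1 had the lowest mean per length of the 10 in fibroblasts of postnatal day 1 and 4 weeks. In fibroblasts it was at 15.5, 9.67, and 16.5 CPM at postnatal day 1 and at 1.56, 0.0134, and 0.636 CPM at 4 weeks, the second of which was 1 read. The fall passed (log2 fold change -4.24, SE 1.21, adjusted p = 0.0312), but not when 1 of 3 of these samples was left out (adjusted p 0.056 to 0.089). Later samples ranged from 0.911 to 4.78 CPM. Whole hearts held 6.85, 8.48, and 3.87 CPM at postnatal day 1 and at 2.60, 1.47, and 0.834 CPM at 4 weeks, without overlap and without passing (log2 fold change -1.97, SE 1.18, adjusted p = 0.276). Of the old whole hearts, 1 had 186 reads of Col13a1 and 1 had 0, where a count of 0 does not show that the gene was silent.

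Fibroblasts were then compared with whole hearts of the same age, in 1 fit over all 27 samples, to ask how far each collagen is concentrated in the sorted cells. At every age 9 of the 10 genes were higher in fibroblasts (adjusted p of 0.0474 or less). In order of age, 13.6%, 17.5%, 17.1%, 16.7%, and 21% of all 20650 genes were called higher, and 32.3%, 36.1%, 34.8%, 32.4%, and 38.9% in either direction. The shares called lower were 18.7%, 18.6%, 17.7%, 15.7%, and 17.9%. The median log2 difference of the 10 genes lay between 4.04 and 5.18, while that of all genes lay between -0.17 and 0.04. Fibroblast markers did the same, with 8 of 8 higher at every age and medians of 3.58 to 4.61.

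Col6a3 reached the largest difference, 6.58 (SE 0.36, adjusted p = 8.6e-13) at 1 year, when it was 2551 CPM in fibroblasts and 26.8 CPM in whole hearts on the joint scale, a 95.3-fold difference. At postnatal day 1 its difference was 4.85 (SE 0.33). The differences of Col6a1 were between 3.84 and 5.11, those of Col6a2 between 3.83 and 5.19, and those of Col15a1 between 4.23 and 5.46. Col12a1 and Col14a1 ranged from 4.47 to 5.91 and from 4.49 to 6.03, and both were highest at 14 weeks. Col16a1 lay between 3.42 and 4.86.

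Col18a1 stood apart from the other 8 genes at postnatal day 1. It was only 1.58-fold higher in fibroblasts than in whole hearts (log2 difference 0.66, SE 0.25, adjusted p = 0.0474), with all 3 fibroblast samples above all 3 whole hearts, and the call was lost without 5 of these 6 samples in turn (adjusted p up to 0.23). At 4 weeks the difference was 1.97 (SE 0.26) and at 14 weeks it was 2.54 (SE 0.28). It was 3.55 (SE 0.29) in the hearts of 1 year and 3.03 (SE 0.29) in those of 1.5 years. Col13a1 did not pass at any age, with differences between -1.49 (SE 1.23, adjusted p = 0.374) at 4 weeks and 1.01 (SE 1.33, adjusted p = 0.616) at 14 weeks.

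**Figure D4:**
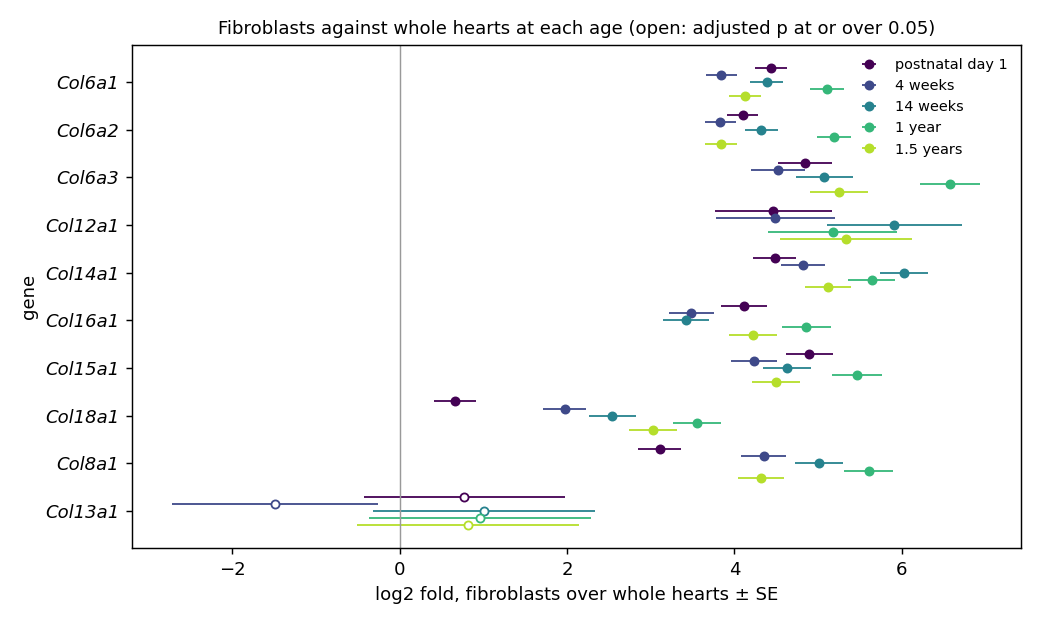
Log2 difference ± SE between fibroblasts and whole hearts for each gene at each of the 5 ages, from 1 fit over 27 samples. Open symbols did not pass. Col18a1 ranges from 0.66 at postnatal day 1 to 3.55 at 1 year, and Col13a1 lies around 0.

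An interaction term asked whether fibroblasts and whole hearts changed differently with age. From postnatal day 1 to 4 weeks, 2 of the 10 passed, both higher (7.14% of all genes, 3.18% higher and 3.96% lower). The change of Col18a1 was higher in fibroblasts than in whole hearts by 1.31 on the log2 scale (SE 0.36, adjusted p = 0.0247), since it fell less there. The change of Col8a1 was higher by 1.25 (SE 0.34, adjusted p = 0.024), since it rose more. Neither call held without replicate 1 of the fibroblasts of 4 weeks, replicate 1 or 2 of the whole hearts of 4 weeks, or replicate 2 of the whole hearts of postnatal day 1, and that of Col8a1 was also lost without replicate 1 of the fibroblasts of postnatal day 1. With the replicate number as a block neither passed (adjusted p = 0.13 for Col18a1 and 0.10 for Col8a1), and whether samples of the same number in both tissues share a heart is not given. For Col12a1 the difference was 0.02 with an SE of 0.83. For 4 to 14 weeks and for 14 weeks to 1.5 years edgeR called 0 of 10 (0.692% and 2.71% of all genes, 0.407% and 1.91% higher, 0.286% and 0.794% lower). At an unadjusted p under 0.05 there were 2 and 1, and DESeq2 called 1 and 0.

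By the shape of its profile over the 12 fibroblast samples, each gene had different close companions among the genes of at least 10 CPM. These correlations describe samples that share ages and libraries. The 3 genes most like Col6a1 were Col6a2, Kdelr3 (a receptor that returns proteins to the endoplasmic reticulum), and Col3a1, with r of 0.99, 0.99, and 0.98, and the same pair of others was nearest to Col6a2. For Col8a1 they were Adgrd1, Cilp (a cartilage matrix protein also made by cardiac fibroblasts), and Smim14, each with r of 0.99. For Col12a1 they were Grb10, Frem1, and Hmgn2 (each 0.97), for Col18a1 Selenoh, Armcx2, and H1fx (0.98, 0.97, and 0.97), and for Col15a1 Lsp1, St3gal2, and Hr (0.96, 0.96, and 0.94). For Col14a1 they were Matn2, Flnc, and Kcp (0.93, 0.92, and 0.92), for Col16a1 Keap1, Efs, and 2310022B05Rik (0.96, 0.96, and 0.95), and for Col6a3 Aacs, Psma7, and Tgfb3 (0.93, 0.88, and 0.88). Col13a1 was below the level required. Apart from the Col6a1 and Col6a2 pair, the nearest other collagen of the 10 had r between 0.62 (Col8a1 and Col15a1) and 0.84 (Col16a1 and Col18a1).

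Lists of related genes were compared between 1.5 years and postnatal day 1. These counts stand against 9.86% of all genes called higher and 6.46% called lower in fibroblasts, and 15.6% and 16.3% in whole hearts. Of the other non-fibrillar collagens, 16 were tested in fibroblasts, and 5 fell and 11 did not pass, with a median log2 fold change of -1.69. Col26a1 fell by 5.99 on the log2 scale, from 228 ± 35.0 (SD, n = 3) to 3.57 ± 0.569 (SD, n = 2) CPM, with an adjusted p of 3.1e-05. Col9a2 fell by 4.09 on that scale, and Col7a1, the anchoring fibril collagen, from 21.4 ± 4.34 (SD, n = 3) to 2.38 ± 1.27 (SD, n = 2) CPM. In whole hearts 4 of 13 fell, Col26a1 by 7.78 and Col6a6 by 1.26 on the log2 scale. Col8a1 was the only gene of the 10 or of this list that edgeR called higher over this span, and it was called in both tissues.

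Among 17 genes listed as receptors, not all of which chiefly bind collagen, 4 rose and 5 fell in fibroblasts, where 16.3% of all genes were called in either direction. Itga11, which pairs with the β1 integrin to bind fibrillar collagens, increased from 4.20 ± 4.14 (SD, n = 3) to 204 ± 48.6 (SD, n = 2) CPM with an adjusted p of 7.8e-05, a rise of 5.60 on the log2 scale. Cspg4, the NG2 proteoglycan, which binds collagen VI, declined from 44.9 ± 12.8 (SD, n = 3) to 9.96 ± 4.34 (SD, n = 2) CPM and Itgb3 from 93.3 ± 5.50 (SD, n = 3) to 27.2 ± 8.51 (SD, n = 2) CPM. In whole hearts, where 31.8% of all genes were called, 2 rose and 9 fell, among them Gpc1 (log2 fold change 1.73), Ddr1 (-2.08), and Itga3 (-1.59). Of 13 matrix partners tested, 5 rose and 4 fell in fibroblasts, and 4 rose and 6 fell in whole hearts. Tenascin C (Tnc), a ligand of collagen XII, fell by 3.96 on the log2 scale in fibroblasts (adjusted p = 7.7e-05) and by 3.41 on the log2 scale in whole hearts. Fibronectin (Fn1) fell by 3.35 and 3.62, respectively. Decorin (Dcn), which binds collagens VI and XIV, rose in fibroblasts, from 2418 ± 255 (SD, n = 3) CPM to 11725 ± 1021 (SD, n = 2), with a log2 fold change of 2.28. In whole hearts Nid2, a basement membrane linker, fell by 2.09 on the log2 scale.

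Of 10 proteases that process these collagens or release their fragments, 2 rose and 1 fell in fibroblasts (16.3% of all genes in either direction), and 3 rose and 2 fell in whole hearts (31.8%). Cathepsin B (Ctsb) rose in both, by 1.30 on the log2 scale in fibroblasts (adjusted p = 1.4e-05) and by 1.70 in whole hearts. Furin, which cleaves transmembrane collagens from the cell surface, fell by 0.46 in fibroblasts (adjusted p = 0.0303). In whole hearts cathepsin S (Ctss) rose by 1.93 and Mmp14 fell by 1.17. Macrophage markers, of which 6 of 6 rose in whole hearts over this span (summed 46.8 to 63.4 CPM against 436 to 574 CPM), moved with Ctss there, and their part in it was not tested.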

How the data were processed

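The authors aligned single-end reads with STAR 2.5.3a to the mouse genome mm10 and deposited 2 tables of raw counts per gene, 1 for sorted fibroblasts and 1 for whole hearts. The annotation and the strand setting of the counting are not given in the sources used here. Groups were taken from the sample labels. The study's methods describe different hearts for the samples of an age, but the labels do not tie samples to animals, so p-values measure the spread between these samples. Totals per sample were 46091271 or more.

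Counts were analyzed in R 4.3.3 with edgeR 4.0.16 (TMM scaling, filterByExpr, glmQLFit, and glmQLFTest). Ages were compared within a tissue over all of its samples (18759 genes in fibroblasts, 17995 in whole hearts), and tissues in a joint fit of 27 samples (20650 genes). P-values were adjusted by Benjamini-Hochberg over all genes tested, with a threshold of 0.05. The SE of a log2 fold change is its size divided by the square root of F. Fold changes are fitted values. Levels per length are CPM per kb of the longest transcript in GENCODE M21 (GRCm38), to which 21770 of 22855 symbols were matched. Likeness is Pearson's r of log2 CPM (prior count 2) among genes with a mean of at least 10 CPM. Upstream sequences came from RefSeq (GRCm38.p6). All 10 genes were tested in every comparison, though not every result of each is printed. The 3 genes most alike by r in fibroblasts were named for each but Col13a1. From each other list, up to 3 genes per tissue were named, those that passed with the largest change at 1.5 years against postnatal day 1 and had a mean of 10 CPM at either age. The genes and lists were chosen with earlier results of these data known.

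Alternatives were DESeq2 1.42.0 (the tool of the study), median-of-ratios or library size scaling, no filter on low counts, offsets for transcript length and GC content, a replicate block, fits of the 2 compared ages alone, and leaving out each sample. The procedure was tested on simulated data. Figures were drawn in Python 3.11.15 with matplotlib 3.10.9.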

Additional observations from a re-analysis of the deposited data

Results flagged for a closer look

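The changes of 2 genes from postnatal day 1 to 4 weeks differed between fibroblasts and whole hearts by a test of the difference itself, the interaction of tissue and age in edgeR. The change of Col18a1 was higher in fibroblasts by 1.31 on the log2 scale (SE 0.36, adjusted p = 0.0247). It did not pass with median-of-ratios scaling (1.14, adjusted p = 0.055), and DESeq2 called it (1.14, adjusted p = 0.023). The change of Col8a1 was higher in fibroblasts by 1.25 (SE 0.34, adjusted p = 0.024), and DESeq2 called it as well (1.08, adjusted p = 0.014). With the replicate number as a block neither passed (Col18a1 1.27, adjusted p = 0.13, and Col8a1 1.23, adjusted p = 0.10). Leaving out single samples gave 1.00 to 1.55 for Col18a1 and 0.94 to 1.50 for Col8a1.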

How the results depend on the processing

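Of 2598 values of single genes under alternatives, 2420 kept their side of the threshold, 130 no longer passed, and 48 newly passed. The sign changed in 93 of the values, none of which passed before or after. The number of the 10 genes called changed as follows, and the causes were not tested. In fibroblasts from 4 to 14 weeks it was 1 with length and GC offsets. From 14 weeks to 1 year it was 1 with library size only, 1 with no filter on low counts, 0 with length and GC offsets, and 4 with only the 2 ages compared. From 14 weeks to 1.5 years it was 1 with library size only, 0 with length and GC offsets, 1 with only the 2 ages, and 4 with DESeq2. In whole hearts it was 2 at 1 year against 14 weeks with only the 2 ages, and 2 at 1.5 years against 14 weeks with median-of-ratios scaling, library size only, length and GC offsets, these offsets with the replicate block, and DESeq2. For the difference between tissues from 4 to 14 weeks it was 1 with library size only and 1 with DESeq2.

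Leaving out single samples gave 4 to 6 calls in fibroblasts at 4 weeks against postnatal day 1, 0 to 6 from 4 to 14 weeks, 0 to 1 from 14 weeks to 1 year, 0 from 14 weeks to 1.5 years, and 4 to 6 at 1.5 years against postnatal day 1. In whole hearts it gave 3 to 4 from postnatal day 1 to 4 weeks (3 without any 1 sample of postnatal day 1 or replicate 3 of 4 weeks), 3 to 5 from 4 to 14 weeks, and 4 to 7 at 1.5 years against postnatal day 1. For the difference between tissues from postnatal day 1 to 4 weeks it gave 0 to 2. Library size scaling moved the median over all genes of the log2 fold change in whole hearts to -0.60 from postnatal day 1 to 4 weeks and to -0.75 at 1.5 years against postnatal day 1.

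Samples of the same replicate number did not deviate together (r of -0.062 to 0.10), and each sample correlated best with its own number in 4 of 6 cases in fibroblasts, 17 of 60 in whole hearts, and 3 of 12 between tissues, so the numbers were not taken as pairs. With the replicate block the difference between tissues from postnatal day 1 to 4 weeks had 0 calls (Col18a1 1.27, adjusted p = 0.13, and Col8a1 1.23, adjusted p = 0.10). At the lowest levels, those of Col12a1 in whole hearts and of Col13a1 in both tissues, few reads limit what can be detected.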
